A study of Drosophila melanogaster with 32 samples.

Results

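Glutathione transferases attach the tripeptide glutathione to reactive, electrophilic compounds, which makes them more soluble and easier to remove. In insects the Delta (GstD) and Epsilon (GstE) classes have expanded into runs of neighbouring genes and are known for the breakdown of plant toxins and insecticides. The Omega (GstO), Sigma (GstS), Theta (GstT) and Zeta (GstZ) classes are older, and several of their members have roles in pigment, amino acid or lipid metabolism. The family was taken as every gene whose symbol begins with one of these 6 class names and a number, read from probe sets that the platform annotation assigns to a single gene. This gave 34 genes with 36 probe sets, of 11981 genes that have a probe set of their own and 18769 probe sets tested. The probe set with the highest mean over the arrays stood for each gene. By class these were 11 Delta, 13 Epsilon, 3 Omega, 1 Sigma, 4 Theta and 2 Zeta genes. GstE8 has no probe set assigned to it alone and was not analysed here.

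Expression was measured on 32 Affymetrix arrays of whole adult Drosophila melanogaster females. All flies descended from the LHM base population. The females of 4 populations (Mono1 to Mono4) came from 46 generations of monogamy, in which each fly mated a single time per generation, and those of 4 populations (Prom1 to Prom4) from the same time under the standard, promiscuous protocol. The 4 groups, of 8 arrays each, were Mono females mated to Mono males, Mono females mated to Prom males, Prom females mated to Mono males and Prom females mated to Prom males. Mates came from the female's own population or from the population of the same number in the other regime. The population number of the females and that of the populations their mates came from therefore cannot be told apart. All females were frozen 6 h after mating, and no unmated females are among the groups. Each of the 16 crosses had 2 biological replicates, placed in separate batches by the labels. The number of flies pooled per array and their age are not given in the labels. Values are log2 expression after robust multi-array averaging (RMA), so a difference of 1 is a doubling of signal.

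Over all probe sets, arrays of the same cross had correlations between 0.996 and 0.998. The yolk protein genes Yp1 to Yp3, which adult females express, had means of 14.48 to 14.73, while 8 genes of the male accessory gland and testis had means of 2.72 to 4.80. In RNA from a whole body, fewer cells of a type and less RNA per cell cannot be told apart. Mean signal of the 34 members lay between 3.64 (GstD6) and 13.35 (GstD1), and array medians between 5.41 and 5.50. GstD4, GstD5, GstD6, GstD11 and GstZ2 had means under the lowest array median. Probes differ in brightness, so levels are not compared between genes.

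In the gene order of the RefSeq table, the 11 Delta genes form a run on arm 3R, in the order GstD10, GstD9, GstD1 to GstD8 and GstD11. On arm 2R, GstE10 and GstE1 to GstE9 form a run of 10, and GstE11, GstE12, GstE13 and GstE14 each lie elsewhere on that arm. The Omega genes lie together on arm 3L with sepia (se), a further Omega enzyme that makes a precursor of the red eye pigments, between GstO3 and GstO2. GstS1, GstT1 and GstT2 are on 2R, GstZ1 and GstZ2 on 3R, and GstT3 and GstT4 on X.

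Most members of the family differed between populations that had evolved under the same regime. They differed among the populations of a regime in 25 of 34 cases (73.5%), by a limma moderated F test with an adjusted p under 0.05. The same test called 13.7% of all probe sets and 17.4% of genes with a probe set of their own. Brighter probe sets are called more often: among genes with a mean of at least 6 the share was 23.5%, and 23 of the 28 members at that level were called (82.1%). By class, 9 of 11 Delta, 10 of 13 Epsilon, 1 of 3 Omega, 1 of 1 Sigma, 3 of 4 Theta and 1 of 2 Zeta genes were called. The 9 members not called were GstD6, GstD11, GstE4, GstE7, GstE12, GstO1, GstO2, GstT4 and GstZ2. With each population left out in turn, 14 of the 25 called members kept their call every time and 11 lost it at least once. The same split was not counted over all called genes.

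The size of these differences was taken as the widest range of population means within a regime. Its median was 0.38 log2 units over the 34 members and 0.19 over all genes. A range of at least 1 log2 unit was found for 6 members (17.6%), against 2.35% of all genes and 11.7% of all called genes. These 6 were GstO3, GstD5, GstD4, GstD2, GstE14 and GstE11. Among the 25 called members the range ran from 0.22 to 1.96, and among the 9 not called from 0.13 to 0.34.

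**Figure D1:**
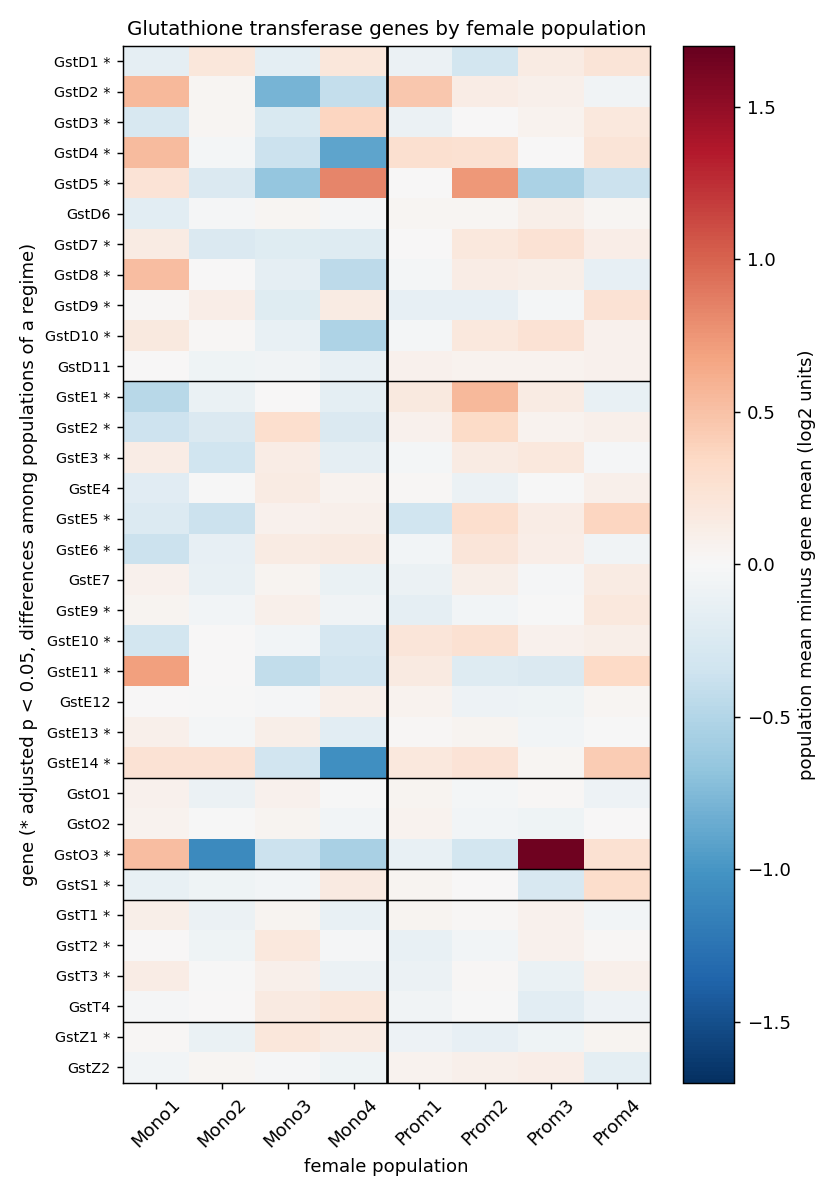
Each row is a gene, ordered by class, and each column a female population, with the 4 Mono populations left of the line and the 4 Prom populations right of it. Colour gives the population mean of 4 arrays minus the gene's mean, in log2 units, and an asterisk marks the 25 genes that differed among populations of a regime. GstO3 in Prom3, GstE14 and GstD4 in Mono4, and GstO3 in Mono2 stand out, and no single pattern runs through all rows.

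GstO3 had the widest range, 1.96 log2 units or 3.89-fold (adjusted p = 5.7e-09). The Omega class carries a cysteine in place of the usual active-site residue and acts as thiol transferase and dehydroascorbate reductase. Its means were 9.90 in Mono1, 8.30 in Mono2, 9.01 in Mono3 and 8.82 in Mono4, and 9.25 in Prom1, 9.07 in Prom2, 11.03 in Prom3 and 9.64 in Prom4. The 4 Prom3 arrays lay between 10.55 and 11.37, above every other array, of which the highest was a Mono1 array at 10.05. The 4 Mono2 arrays, at 8.08 to 8.41, were lower than all Prom arrays. Without Prom3 the range was 1.60, in the Mono populations, and the gene was still called (adjusted p = 5.3e-07). The neighbouring Omega genes did not pass this test, with ranges of 0.17 for GstO1 (adjusted p = 0.106) and 0.13 for GstO2 (adjusted p = 0.239). The second probe set of GstO2 differed from the brighter one here: it had a mean of 8.23, a range of 0.66 and an adjusted p of 2.3e-05, with 8.57 in Mono1, 7.91 in Mono2, 8.18 in Mono3 and 8.13 in Mono4, and 8.20 in Prom1, 8.08 in Prom2, 8.36 in Prom3 and 8.44 in Prom4.

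GstE14, known as Noppera-bo, is needed for ecdysteroid synthesis in the prothoracic gland and is also expressed in the ovary. It gave the lowest adjusted p of the family, 1.4e-09, with a range of 1.29. The 4 arrays of Mono4 had 5.15 as their highest value, below every other array, around a mean of 5.09 ± 0.07 (SD, n = 4 arrays). Mono3 followed at 5.80 ± 0.12, while Mono1 and Mono2 were at 6.38 ± 0.19 and 6.38 ± 0.08. The Prom populations lay at 6.32 in Prom1, 6.36 in Prom2, 6.17 in Prom3 and 6.57 in Prom4, a range of 0.40 that was called on its own too (adjusted p = 0.0057). Without Mono4 the range was 0.58, and the gene was still called (adjusted p = 3.7e-05). The 7 measured ovary genes of a marker list (such as osk and vas) had 0 called in this test with limma and 1 with an unadjusted p under 0.05. The means of that list ran from 10.83 to 11.12 in the Mono populations and from 10.87 to 10.98 in the Prom populations. The part of the ovary in the differences of GstE14 was not tested.

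**Figure D2:**
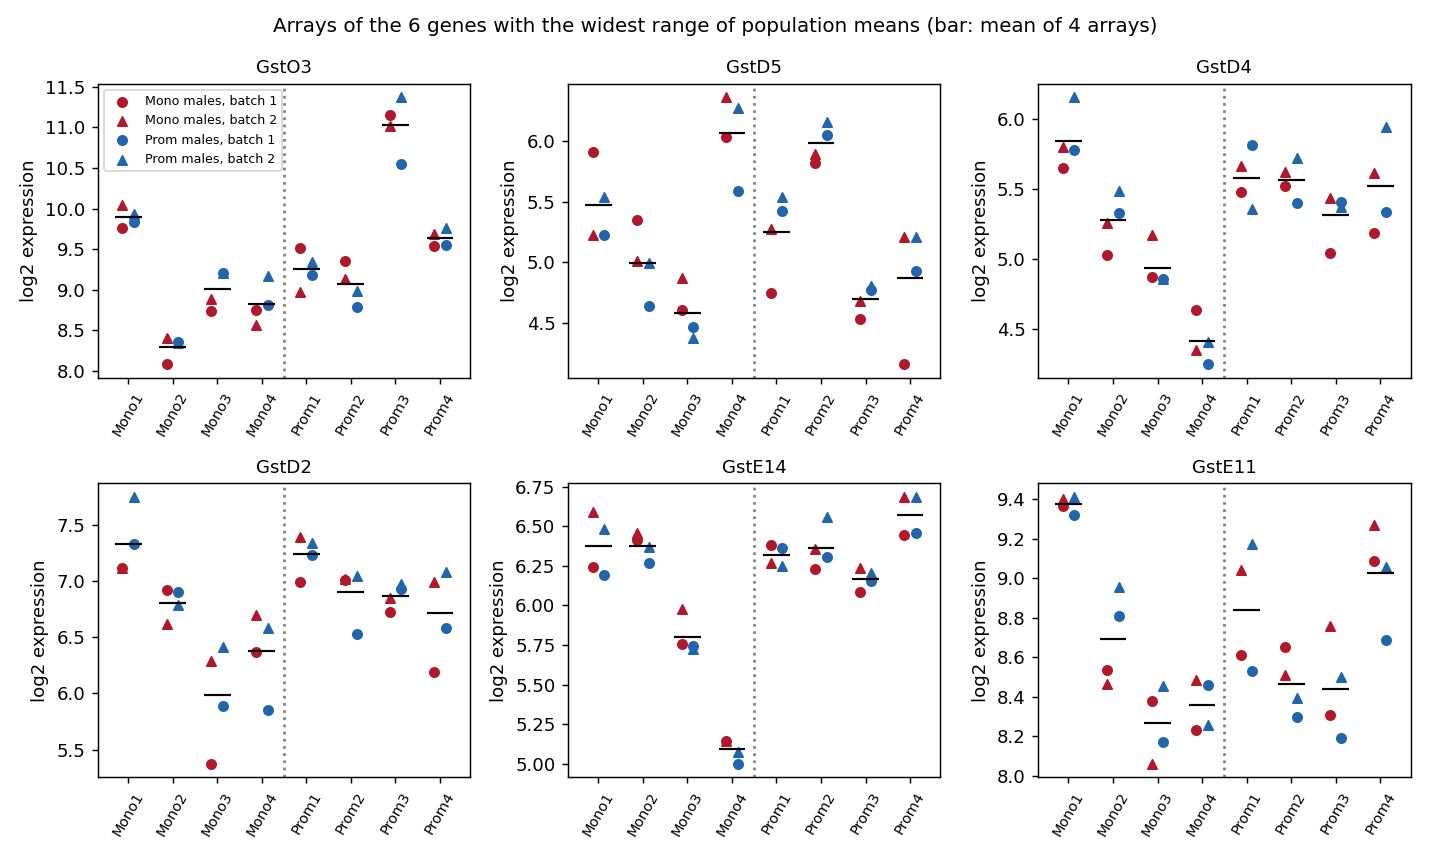
Log2 expression on all 32 arrays for the 6 members with a range of at least 1 log2 unit, by female population. Colour gives the regime of the mate, the marker shape the batch and the horizontal bar the mean of the 4 arrays of a population. All 4 Prom3 arrays of GstO3 lie above, and all 4 Mono4 arrays of GstE14 below, every other array.

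The Delta run held 3 of the widest ranges, and its members did not all vary together. GstD4 had means of 5.85 in Mono1, 5.28 in Mono2, 4.94 in Mono3 and 4.41 in Mono4, and of 5.58, 5.57, 5.32 and 5.52 in Prom1 to Prom4 (range 1.44, adjusted p = 3.3e-06). Its 4 Mono4 arrays, at 4.25 to 4.64, were lower than the arrays of all other populations. The range was 0.86 without Mono1 and 0.91 without Mono4, with adjusted p values of 0.0018 and 0.00056. GstD5, the next gene in the run, had 5.48, 4.999, 4.58 and 6.07 in Mono1 to Mono4 and 5.25, 5.98, 4.70 and 4.87 in Prom1 to Prom4 (range 1.49, adjusted p = 5.3e-06). Mono4, the lowest population for GstD4, was thus the highest for GstD5, and the deviations of these genes from the regime means had r = -0.12 over the 8 populations. GstD2, whose enzyme conjugates isothiocyanates in vitro, had 7.33, 6.81, 5.99 and 6.38 in Mono1 to Mono4 and 7.24, 6.90, 6.87 and 6.71 in Prom1 to Prom4 (range 1.34, adjusted p = 7.2e-05). Mono3 was the lowest, and its 4 arrays were spread from 5.37 to 6.41. Without Mono1 the range of GstD2 was 0.82 (adjusted p = 0.0092).

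GstD1, an abundant enzyme able to break down DDT, had small but tight differences. Its means were 13.20 in Mono1, 13.54 in Mono2, 13.18 in Mono3 and 13.54 in Mono4, and 13.25 in Prom1, 13.04 in Prom2, 13.50 in Prom3 and 13.56 in Prom4 (range 0.52, adjusted p = 5.3e-06). In each regime all arrays of 2 populations lay above those of the other 2. The arrays of Mono2 and Mono4 lay at 13.46 or above and those of Mono1 and Mono3 at 13.32 or below. Those of Prom3 and Prom4 lay at 13.44 or above and those of Prom1 and Prom2 at 13.40 or below. This split was picked from the values, and the share of all genes with such a split is not given. GstD3 ranged from 9.30 to 9.93 in the Mono populations and from 9.47 to 9.75 in the Prom populations (adjusted p = 0.00045), and it was no longer called without Mono4 (range 0.31, adjusted p = 0.0785). GstD8 ranged from 5.80 to 6.77 in the Mono populations and from 6.11 to 6.38 in the Prom populations (adjusted p = 0.00053), and it was no longer called without Mono1 (range 0.45, adjusted p = 0.0921). The other called Delta genes were GstD7, GstD9 and GstD10, with ranges of 0.38, 0.39 and 0.70. GstD7 was no longer called without Mono1 (range 0.23, adjusted p = 0.488), nor GstD10 without Mono4 (range 0.30, adjusted p = 0.235).

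In the Epsilon class, GstE11 ranged most after GstE14. It had 9.38 in Mono1, 8.69 in Mono2, 8.26 in Mono3 and 8.36 in Mono4, and 8.84 in Prom1, 8.46 in Prom2, 8.44 in Prom3 and 9.03 in Prom4 (range 1.11, adjusted p = 5.3e-06). The 4 Mono1 arrays, at 9.32 to 9.41, lay above all other arrays. Without Mono1 the range was 0.59 (adjusted p = 0.0042). GstE6 ran the other way, with 11.39, 11.62, 11.90 and 11.91 in Mono1 to Mono4 and 11.71, 11.96, 11.86 and 11.70 in Prom1 to Prom4 (range 0.52, adjusted p = 0.00017). Its range without Mono1 was 0.30 (adjusted p = 0.0111). GstE1, known for conjugating products of lipid peroxidation, had 10.73, 11.09, 11.21 and 11.04 in Mono1 to Mono4 and 11.38, 11.76, 11.35 and 11.08 in Prom1 to Prom4 (range 0.68, adjusted p = 0.00039). GstE5 had 8.49, 8.36, 8.79 and 8.80 in Mono1 to Mono4 and 8.38, 9.01, 8.85 and 9.09 in Prom1 to Prom4 (range 0.70, adjusted p = 0.00038), and 0.44 without Prom1 (adjusted p = 0.0171). Mono1 was the lowest Mono population for GstE1 and GstE6 and Prom1 the lowest Prom population for GstE5. The 5 other called Epsilon genes had ranges of 0.28 (GstE13) to 0.64 (GstE2). Of these, GstE2 was not called without Mono3 (range 0.26, adjusted p = 0.566), GstE13 without Mono4 (0.14, adjusted p = 0.185) and GstE9 without Prom4 (0.15, adjusted p = 0.224). GstE3, with an adjusted p of 0.0398, lost its call without Mono1, Mono2, Mono3 or Prom1, with adjusted p values of 0.0555 to 0.302 and a range of 0.28 without Mono2. GstE10 kept its call each time.

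In the Sigma class, GstS1, an abundant enzyme of flight muscle that conjugates the lipid peroxidation product 4-hydroxynonenal, had 11.25, 11.31, 11.33 and 11.53 in Mono1 to Mono4 and 11.43, 11.39, 11.11 and 11.68 in Prom1 to Prom4 (range 0.57, adjusted p = 0.0029). Its range was 0.29 without Prom3, where it was no longer called (adjusted p = 0.0771), and 0.32 without Prom4 (adjusted p = 0.0218). Its probe set carries the suffix that marks probes shared with other transcripts, so its signal may not be its own alone. The Theta genes GstT1, GstT2 and GstT3 were called with ranges of 0.22, 0.26 and 0.23, and GstT1 lost its call without Mono1, Mono2, Mono4 or Prom4 (adjusted p of 0.0511 to 0.0927). GstZ1, of the class that isomerises maleylacetoacetate in tyrosine breakdown, was called with a range of 0.31 (adjusted p = 0.0235), but its call was lost with Mono2 left out (0.19, adjusted p = 0.21) and with Prom4 left out (adjusted p = 0.0647). GstZ2 was not called (0.28, adjusted p = 0.206).

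Differences among the 4 Mono populations alone were called for 23 members, against 10.7% of probe sets and 13.5% of genes. Differences among the 4 Prom populations alone were called for 12 members, against 7.67% of probe sets and 9.78% of genes, and 10 members were called in both. The share of all genes called in both was not counted. The range was wider in the Mono than in the Prom populations for 18 of the 25 called members (72%) and for 58.1% of all called genes. The median range of the 34 members was 0.34 in the Mono and 0.26 in the Prom populations, against 0.16 and 0.14 over all genes. Whether the spread differed between the regimes was not tested. No population was extreme throughout: Mono4 was the lowest Mono population for 8 called members and the highest for 7, and Prom3 the lowest Prom population for 9 and the highest for 6. Counts of lowest and highest were 6 and 10 for Mono1, 6 and 1 for Mono2 and 5 and 7 for Mono3. For Prom1 they were 8 and 2, for Prom2 3 and 7 and for Prom4 5 and 10. Such counts over all called genes are not given, so these only describe the members.

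The pattern over populations was set side by side between batches and between kinds of mate, on the same arrays that the F test had used. Across the 8 deviations of population means from their regime mean, the correlation of batch 2 with batch 1 had a median of 0.86 over the 25 called members, from 0.56 (GstD7) to 0.99 (GstO3). With females mated to Mono males set against those mated to Prom males, the median was 0.92, from 0.55 (GstE10) to 0.99 (GstE14). These correlations rest on 8 points each and are given as a description. The F test picks genes whose arrays of a population agree, so high values are in part built in. No value over all called genes is given beside them. With fewer arrays fewer calls were made: 14 members in batch 2 alone, 13 in batch 1 alone, 6 with Mono males alone and 13 with Prom males alone, against 5.36%, 4.19%, 2.81% and 4.5% of probe sets.

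Likeness of pattern was measured by the same 8 deviations, which share arrays and normalization. The most alike pairs among called members were GstD4 and GstD8 (r = 0.904), GstD4 and GstE14 (r = 0.899), GstD8 and GstD10 (r = 0.894), GstD10 and GstE14 (r = 0.832) and GstD4 and GstD10 (r = 0.826). These 4 genes had their lowest Mono population in Mono4. GstD10 had 7.88, 7.73, 7.58 and 7.18 in Mono1 to Mono4 and 7.68, 7.89, 7.95 and 7.78 in Prom1 to Prom4. The most opposed pairs were GstE6 with GstE11 (r = -0.959) and GstD3 with GstE13 (r = -0.938). The called genes of the Delta run did not share a single pattern: their 36 pairs had a median r of 0.03, from -0.70 to 0.90. The 21 pairs within the Epsilon run had a median of 0.34. Pairs with a gene in each run had a median of -0.23 (63 pairs), all pairs of called members 0.04 (300 pairs) and all pairs of called genes 0.00. Neighbours in the Delta run could be alike, as GstD7 and GstD8 (r = 0.818), or GstD9 and GstD1 (r = 0.812), or opposed, as GstD3 and GstD4 (r = -0.701). Within the Delta run, GstD2, GstD4, GstD7, GstD8 and GstD10 were alike in every pair (r of 0.49 to 0.90). So were GstD1, GstD3 and GstD9 (r of 0.71 to 0.81). These sets were picked for their values.

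Females that had evolved under monogamy were compared with those that had evolved under promiscuity, with the population as the replicate. With limma, 0 of 34 members were called, as were 0% of all probe sets. An unadjusted p under 0.05 was reached by 5 members (14.7%), against 6.99% of probe sets and 8% of genes. Signal was lower in Mono females for 23 of 34 members (67.6%), against 52.9% of all genes, by a median difference of -0.05 log2 units, against 0.00 over all genes. The lowest adjusted p of a member was 0.578. With 4 populations against 4, an exact permutation test of a single gene cannot go below p = 0.0286.

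GstE10 came closest. It had 8.44, 8.76, 8.70 and 8.46 in Mono1 to Mono4 and 8.95, 9.01, 8.82 and 8.85 in Prom1 to Prom4, a difference of -0.32 ± 0.08 (SE, n = 4 populations per regime, limma adjusted p = 0.578). Every Mono population lay below every Prom population. GstD11 had 5.21, 5.14, 5.15 and 5.08 in Mono1 to Mono4 and 5.28, 5.26, 5.26 and 5.28 in Prom1 to Prom4, a difference of -0.12 ± 0.03 (limma adjusted p = 0.581) at a signal under the lowest array median. Its difference was -0.22 with Mono males alone and -0.03 with Prom males alone. These were the 2 members with all 4 Mono below all 4 Prom populations (5.88%, against 2.88% of genes), and 0 members had all 4 above (against 1.79% of genes). GstE1 averaged 11.02 ± 0.20 in Mono females and 11.39 ± 0.28 in Prom females (SD, n = 4 populations each), a difference of -0.37 ± 0.14 (SE, limma adjusted p = 0.674), with Prom4 inside the Mono range. GstD7 differed by -0.27 ± 0.09 (limma adjusted p = 0.623), and its Mono1 mean of 7.16 lay above the Prom1 and Prom4 means of 7.04 and 7.14.

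On the higher side, GstT4 averaged 10.5 ± 0.10 in Mono females and 10.3 ± 0.07 in Prom females (SD, n = 4 populations each), a difference of +0.17 ± 0.06 (SE, limma adjusted p = 0.634). The regimes overlapped, since Mono1 at 10.42 lay below Prom2 at 10.43. GstZ1 differed by +0.12 ± 0.07, GstT3 by +0.05 ± 0.06 and GstE12 by +0.03 ± 0.04. For GstT3 and GstE12 that is no more than the standard error of the difference. GstZ1 differed by 0.06 in batch 2 and 0.19 in batch 1, GstT3 by 0.04 in batch 2 and 0.06 in batch 1, and GstE12 by 0.00 with Mono males and 0.07 with Prom males. The 2 largest differences in size were in genes that also varied widely among populations, though GstD5, with the second widest range, differed by only 0.08. GstO3 differed by -0.74 ± 0.46 (limma adjusted p = 0.796) and GstE14 by -0.44 ± 0.26 (limma adjusted p = 0.779), and their regimes overlapped. By class, the median difference was -0.10 over the Delta, -0.10 over the Epsilon, 0.02 over the Omega, 0.05 over the Theta and 0.04 over the Zeta genes. GstS1 differed by -0.05.

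**Figure D3:**
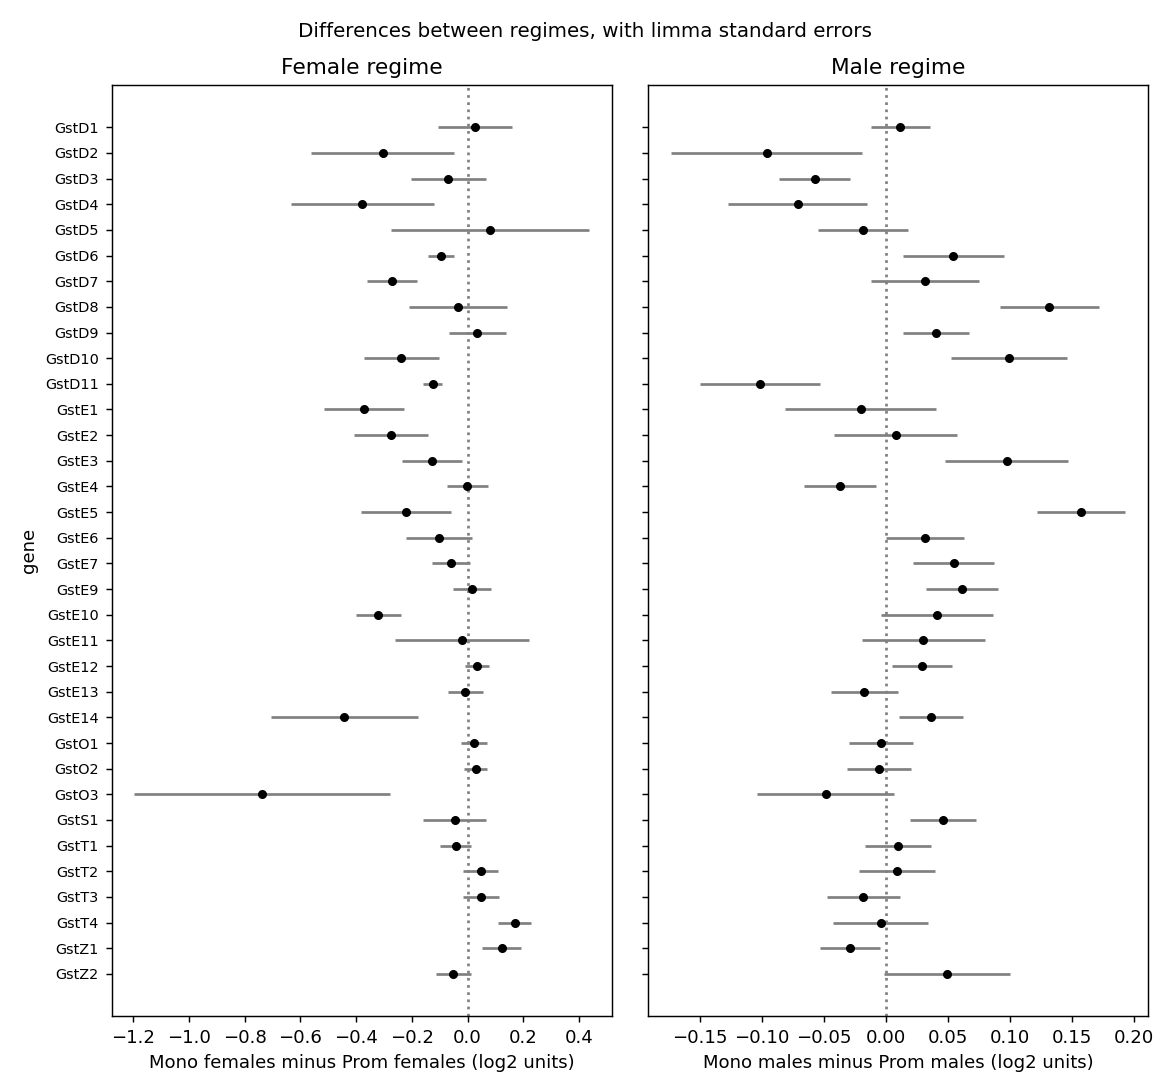
Points give the log2 difference of each member and bars its limma standard error, for Mono minus Prom females (left, n = 4 populations per regime) and for females mated to Mono minus Prom males (right, n = 8 female populations). The female differences run from -0.74 (GstO3) to 0.17 (GstT4) and the male differences from -0.10 (GstD11) to 0.16 (GstE5), and 0 passed adjustment in either panel.

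The regime of the mate was compared within female populations, with mates from Mono males set against mates from Prom males. With limma, 0 of 34 members were called, as were 0% of all probe sets. An unadjusted p under 0.05 was reached by 2 members (5.88%), against 10.5% of probe sets and 10.7% of genes. Signal was higher after mating to Mono males for 20 members and lower for 14, with a median difference of 0.01, and 53.6% of all genes were lower.

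GstE5 had the lowest p. Its differences between mates were 0.07 in Mono1, 0.37 in Mono2, 0.16 in Mono3 and 0.15 in Mono4 females, and 0.20, 0.10, 0.17 and 0.05 in Prom1 to Prom4 females. It was thus higher with Mono males in 8 of 8 female populations, by 0.16 ± 0.04 (SE, n = 8 female populations, limma adjusted p = 0.402). The difference was 0.20 in batch 2 and 0.12 in batch 1. GstD8 was higher in 6 of 8, by 0.13 ± 0.04 (limma adjusted p = 0.402), and its largest differences, 0.38, 0.22 and 0.19, were in Mono1, Mono2 and Mono3 females. GstE9 (+0.06 ± 0.03) and GstD10 (+0.10 ± 0.05) were higher in 7 of 8 populations each. On the lower side, GstD3 differed by -0.06 ± 0.03 and was lower in 7 of 8, GstD11 by -0.10 ± 0.05 and was lower in 5 of 8, GstD4 by -0.07 ± 0.06 and GstE4 by -0.04 ± 0.03. Males of a number were mated to Mono and to Prom females of that number, so these 8 differences hold only 4 sets of males.

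The last regime comparison asked whether the difference between mates depended on the regime of the female. Own population and own regime cannot be told apart in it. With limma, 0 of 34 members were called, as were 0% of all probe sets, and 6 members had an unadjusted p under 0.05 (17.6%), against 7.28% of probe sets and 7.65% of genes. GstD5 came close to the threshold. Its differences between Mono and Prom males were 0.19, 0.36, 0.32 and 0.27 in Mono1 to Mono4 females and -0.47, -0.25, -0.18 and -0.38 in Prom1 to Prom4 females. In 8 of 8 populations signal was higher in females mated within their own population. The difference of differences was 0.60 ± 0.07 (SE, limma adjusted p = 0.0807). It was 0.24 in batch 2 and 0.97 in batch 1, and its mean signal of 5.24 lies below the array median.

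GstE4 showed the same signs, with 0.06, 0.08, 0.03 and 0.10 in Mono1 to Mono4 females and -0.03, -0.21, -0.23 and -0.10 in Prom1 to Prom4 females, and a difference of 0.21 ± 0.06 (SE, limma adjusted p = 0.661). GstE11 and GstO3 had the lowest p in the other direction. For GstE11 the difference between mates averaged -0.11 in Mono females and 0.18 in Prom females, a difference of -0.29 ± 0.10 (limma adjusted p = 0.664). For GstO3 it averaged -0.20 in Mono females and 0.11 in Prom females, a difference of -0.31 ± 0.11 (limma adjusted p = 0.664). In both genes some populations went against the mean of their regime.

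**Figure D4:**
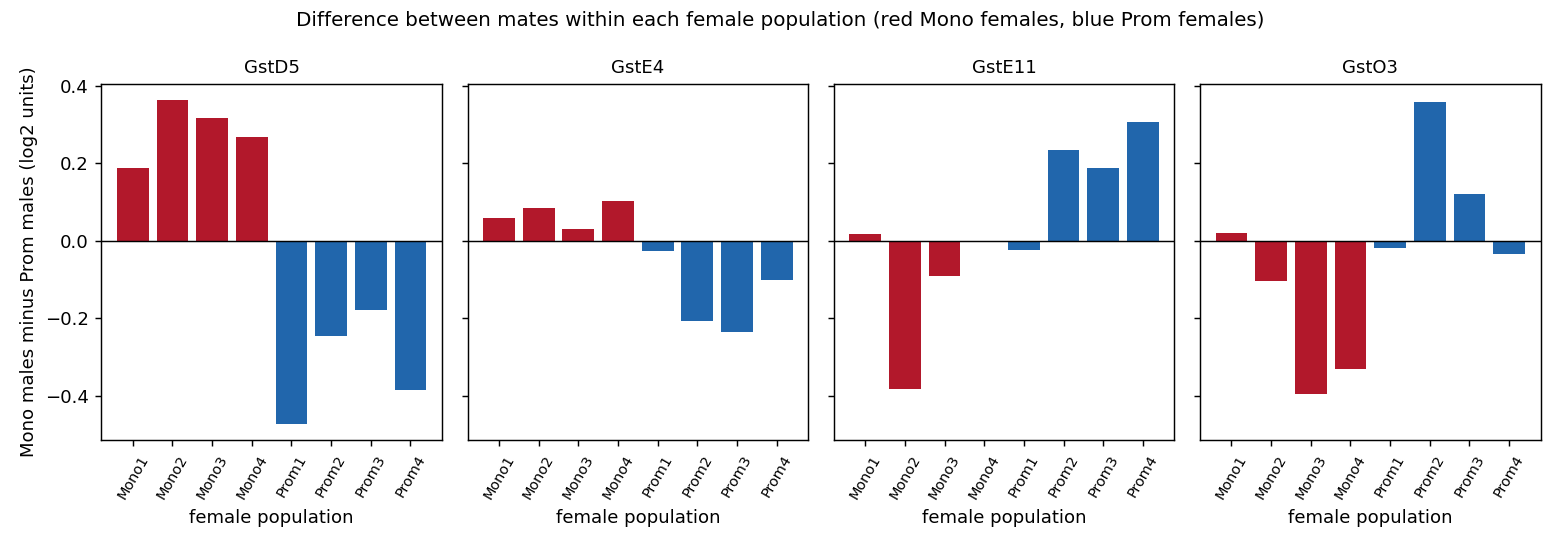
Bars give the log2 difference between females mated to Mono males and females mated to Prom males, within each female population, for the 2 members with the lowest interaction p in each direction. For GstD5 and GstE4 all 4 Mono populations lie above 0 and all 4 Prom populations below it, while GstE11 and GstO3 have both signs within a regime.

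Batch changed 6 of 34 members (17.6%), against 19.8% of probe sets and 22.4% of genes. Higher in batch 2 were 5 members (10.2% of probe sets were), among them GstD2 by 0.31 ± 0.08 (SE, limma adjusted p = 0.0081), GstE14 by 0.12 ± 0.04, GstT1 by 0.09 ± 0.03 and GstO1 by 0.08 ± 0.03. GstE12, by 0.07, was the fifth. GstT4 was lower in batch 2, by -0.15 ± 0.04 (limma adjusted p = 0.0077), as were 9.57% of probe sets. Control probe sets placed at both ends of a transcript report on RNA quality. Their 3′ signal exceeded their 5′ signal by more in batch 2 than in batch 1 in 16 of 16 crosses, with a further 1.00 log2 units in actin, 0.40 in GAPDH and 0.93 in eIF-4a. The part of this in the batch differences was not tested. The actin gap averaged 2.30 to 2.61 over the Mono and 2.29 to 2.50 over the Prom populations. Mono1, the highest population for GstE11 and the highest Mono population for GstD8 and GstD7, and the lowest population for GstE6, had the lowest gap of the Mono populations in all 3 controls (actin 2.30, GAPDH 1.31, eIF-4a 2.43). Prom3, the highest population for GstO3, had the highest gap of the Prom populations in all 3 (2.50, 1.37 and 2.55). Mono4, the lowest for GstE14 and GstD4, had 2.39, 1.35 and 2.58, inside the range of the Mono populations. The part of RNA quality in the differences among populations was not tested.

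Related genes were set beside the family from lists matched by symbol, and in all of them 0 genes were called for female regime, male regime or their interaction. Counts called among populations are to be read against the 17.4% of all genes and the 23.5% of those with a mean of at least 6. Of 5 genes for related proteins with other symbols, the microsomal transferase Mgstl (range 0.43, adjusted p = 0.00016) and Clic (0.16, adjusted p = 0.029) differed among populations, while se, gfzf and eEF1gamma did not pass. Of the 4 regulators, the CncC gene cnc, Keap1, maf-S and Hr96, only maf-S, the small Maf partner of CncC, was called, with a range of 0.22 (adjusted p = 0.0163), a share near that of all genes. Of 13 measured genes of glutathione synthesis and antioxidant defence, 5 were called, namely Trx2, Sod2, Sod3, Cat and Prx6c. The extracellular superoxide dismutase gene Sod3 had a range of 1.26, with 9.27, 10.38, 10.42 and 10.53 in Mono1 to Mono4 and 9.55, 9.66, 10.36 and 9.37 in Prom1 to Prom4.

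Of 11 measured cytochrome P450, epoxide hydrolase and transporter genes, 6 were called. Cyp12d1-d had the widest range, 4.24, with 8.54, 6.21, 4.29 and 6.52 in Mono1 to Mono4 and 8.58, 8.20, 5.33 and 8.52 in Prom1 to Prom4. A near-identical copy lies beside it, so its probes may read both. Cyp6g1, linked to DDT resistance, stood at 11.06 in Mono3 and between 8.52 and 9.15 in the other 7 populations. Cyp6w1, Cyp6a2, Mdr49 and Cyp6a8 had ranges of 1.81, 1.62, 0.63 and 0.52. Against the 6 called genes of this list, the deviations of GstD4 over 8 populations had r from -0.243 (Cyp6g1) to 0.950 (Mdr49, an ABC transporter gene), those of GstD8 from -0.344 (Cyp6g1) to 0.946 (Mdr49) and those of GstE11 from -0.357 (Cyp6g1) to 0.925 (Cyp6a8). These 3 members were picked for their high values. In the female regime, 9 of these 11 genes were lower in Mono females (median -0.19), against 52.9% of all genes, and 0 passed with limma (2 had an unadjusted p under 0.05), while MRP, a further transporter gene, was higher by 0.13 ± 0.04 (limma adjusted p = 0.581).

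Markers of tissues that express many of these enzymes were counted in the same way. For the Malpighian tubule, the excretory organ, 5 of 7 measured markers were called (Lkr, Irk3, Alp4, Oatp58Dc and SecCl), with a list mean of 6.79 to 7.12 in the Mono and 7.06 to 7.40 in the Prom populations. GstE11, picked for the highest of these values, had r = 0.959 with the potassium channel gene Irk3, -0.515 with Lkr and -0.133 with SecCl, and 0.752 with the list mean. For the midgut 5 of 6 were called (list mean 12.56 to 12.78 in the Mono and 12.49 to 12.66 in the Prom populations), and for fat body and oenocytes 2 of 7 (11.80 to 11.95 in the Mono and 11.75 to 11.88 in the Prom populations), near the share of all genes. Ovary, yolk protein and male gland lists had 0 called among populations with limma, and 1 gene each with an unadjusted p under 0.05. The part of these tissues in the differences of the family was not tested.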

How the data were processed

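Log2 expression values of 18952 probe sets on 32 arrays were deposited by the authors. Per the submitters' processing notes they were made with RMA in affy, of no stated version. RMA corrects background, gives all arrays the same distribution and summarises probes, so it takes out any shift common to most genes. Detection calls were not used, and dim probe sets were tested like the rest. Precision is limited by the number of populations in the regime comparisons, and by the number of arrays in those among populations and between batches. Left out were 183 array controls. Of the 18769 probe sets tested, 13646 were assigned to 1 gene, 402 to several and 4721 to none here. All 34 family genes matched the RefSeq table (assembly Release 6 plus ISO1 MT), which was used for symbols, chromosome arms and gene order only. Probe sequences were not analysed here, so cross-hybridisation between family members was not tested. For the same reason, the part of sequence differences between populations at the probed sites was not tested.

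Tests used limma 3.58.1 in R 4.3.3, two-sided, across all 18769 probe sets, with Benjamini-Hochberg adjustment over all of them and a threshold of 0.05. Female regime compared 8 population means. Male regime and interaction used 16 cross means with female population as a block (6 residual degrees of freedom). For populations within a regime, a moderated F covered 6 contrasts in a fit of all 32 arrays that had a term for each of the 16 crosses and for batch (15 residual degrees of freedom). The batch difference came from that fit. The fits were tested on simulated data. Alternatives were cyclic loess on top of the deposited values, a minimum mean of 6, each batch alone, leaving out each population, population number or batch as a block, populations as a random block, and arrays as independent. Calls within a regime or with a single kind of mate were chosen after seeing the data.

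The family, the lists and the rule for named genes were chosen with earlier results of these data known. The rule took, per regime comparison, the 4 members with the lowest p in each direction (interaction, 2), the 12 called members with the lowest adjusted p among populations, and the 4 called members with the largest batch difference in each direction. Members named beyond this, and the genes of related lists, were chosen after their values were seen. Same-numbered Mono and Prom populations deviated from their regime means with correlations over genes of 0.09, 0.11, 0.19 and 0.03, so the numbers were not taken as pairs.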

Additional observations from a re-analysis of the deposited data

Results flagged for a closer look

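In 68 groups of 4 populations (34 genes in each regime), 3 held a population far from the others by Dixon's criterion at the 95% level, a flag that chance gives in about 1 of 20 groups. GstD7 was at 7.1625 in Mono1, with the other Mono populations at 6.7852 to 6.8216. GstE2 was at 6.6358 in Prom2, with the other Prom populations at 6.3709 to 6.3922. GstD6 was at 3.7368 in Prom3, with the other Prom populations at 3.6652 to 3.6728, a gap of 0.0641 at very low signal. The difference between Mono and Prom males had opposite signs in all Mono and all Prom female populations for 2 genes of the 34. The share of all genes with such signs was not counted, so this is given as a description. The difference of these differences was 0.6041 for GstD5 (limma adjusted p = 0.0807) and 0.2105 for GstE4 (limma adjusted p = 0.661), so neither passed the test of the difference itself.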

How the results depend on the processing

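For female regime, male regime and interaction, 0 members were called under every alternative, except that female regime gave 1 member (GstE10; 127 probe sets) with population as a random block and 4 members (GstE10, GstD7, GstE1 and GstT4; 515 probe sets) with arrays as independent replicates, settings that take less or no account of the spread between populations. In a paired fit with population number as a replicate block 0 members were called. Among populations, 25 members were called, against 14 in batch 2 alone, 13 in batch 1 alone, 12 in the Prom populations alone, 6 with Mono males alone and 13 with Prom males alone, each of which holds fewer arrays or contrasts. Leaving out each population in turn gave 21 to 25, and cyclic loess and no block for batch gave 26 and 24. A minimum mean of 6, which left 28 members to test, gave 26. Batch called 6 members, 6 with cyclic loess and 8 of the 28 with the minimum mean. Shares of all probe sets called under these alternatives are not given, so the counts only describe the members. The male difference of GstD3 was 0.00617 in batch 2 alone and that of GstE4 0.0584 in batch 1 alone, both of the opposite sign to the pooled value, and the cause was not tested. Of 202 values of named genes under alternatives among populations, 187 kept their call and 15 lost it. GstO1 lost its batch call with cyclic loess (0.0573). Signal over background could not be given for any probe set.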

Other observations

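The second probe set of GstE9 had a mean of 3.36 and was called among populations (range 0.74, adjusted p = 7.1e-05), with 3.96 in Mono1, 3.34 in Mono2, 3.23 in Mono3 and 3.31 in Mono4, and 3.31 in Prom1, 3.10 in Prom2, 3.09 in Prom3 and 3.499 in Prom4. On the brighter probe set of GstE9 Mono1 was at 11.52, inside the 11.41 to 11.56 of the other Mono populations, and the range was 0.33, in the Prom populations (adjusted p = 0.0168). The second probe set of GstO2 was higher in batch 2 by 0.13 (limma adjusted p = 0.0141), while the brighter GstO2 probe set, at 0.06, was not called (limma adjusted p = 0.097).

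Among called members, GstE3 moved against the mean of the ovary list over the 8 population deviations (r = -0.985), as did GstT1 (r = -0.869), and GstE6 moved against the fat body and oenocyte list (r = -0.885). GstD2 moved with the mean of the yolk protein genes (r = 0.917). These were picked as the strongest among all pairs of a called member and a list, over 8 points each, and are given as a description. The ovary and yolk protein lists had 0 genes called among populations with limma. The mean of the yolk protein genes ran only from 14.52 to 14.59 in the Mono and from 14.60 to 14.63 in the Prom populations.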
